A study of Mus musculus with 6 samples.

Results

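Chemokine ligands are small secreted or membrane-bound proteins that direct the migration of leukocytes through receptors on the responding cell. They were taken here as every row of the deposited gene table whose symbol is Ccl, Cxcl, Cx3cl or Xcl followed by a number and optional letters. This gave 44 of the 34745 rows, with 39 different symbols, since Ccl21a, Ccl21c and Ccl27a are listed under several identifiers. RNA was sequenced from MLE-12, an immortalized mouse lung epithelial cell line, in 2 groups. The NR4A1 group (3 libraries, N1 to N3) was transfected with the NR4A1 open reading frame in the pCMV-SPORT6 vector, and the vector group (3 libraries, S1 to S3) received pCMV-SPORT6 alone, with Lipofectamine 2000 in both. The cytomegalovirus promoter of the plasmid drives the gene constitutively, all libraries come from 1 cell line, and nothing in the labels says whether the replicates were transfected separately, so that p-values measure the spread between these libraries.

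Airway and alveolar epithelium is a known source of several of these ligands. The CXC ligands of the Cxcl1 type attract neutrophils through CXCR2, Cxcl10 attracts T cells through CXCR3, and Ccl2 and Ccl7 attract monocytes through CCR2. Cx3cl1 and Cxcl16 are made as membrane proteins and are shed by the proteases ADAM10 and ADAM17. Transcription of Cxcl1, Cxcl2 and Cxcl10 is classically driven by NF-kappaB, whereas NR4A1 binds DNA as a monomer at the NBRE, an extended nuclear receptor motif.

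The letters around these motifs are shown for Cxcl1, Cxcl2 and Cxcl3, neighbours that carry the same core while Cxcl1 had at least 44 counts in every library, Cxcl2 none and Cxcl3 1 count in all, for Cxcl10 and Ccl9, the other counted ligands with an NF-kappaB match before the start, and for Ccl6, the ligand with the NBRE. Not shown are the NF-kappaB matches of Ccl27a, which lies after the start, and of Ccl1 and Ccl20. The windows searched run from 250 bases before to 50 bases after each RefSeq start (GRCm38.p6), and both strands were read. Capitals mark the motif and the distance is that of its first base from the start of the gene.
Cxcl1, NF-kappaB motif, 71 bases upstream, chr5:90891164-90891193, plus strand: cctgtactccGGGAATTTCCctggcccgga
Cxcl2, NF-kappaB motif, 97 bases upstream, chr5:90903792-90903821, plus strand: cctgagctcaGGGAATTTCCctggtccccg
Cxcl3, NF-kappaB motif, 73 bases upstream, chr5:90786018-90786047, plus strand: gagctgcgggGGGAATTTCCccagcccggg
Cxcl10, NF-kappaB motif, 159 bases upstream, chr5:92349029-92349058, minus strand: agaggggagaGGGAAATTCCaagttcatgg
Ccl9, NF-kappaB motif on the opposite strand, 35 bases upstream, chr11:83578652-83578681, minus strand: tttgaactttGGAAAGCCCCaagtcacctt
Ccl6, NBRE on the opposite strand, 88 bases upstream, chr11:83593157-83593186, minus strand: ctagcccaccaTGACCTTTgccctcgcttc
Promoter windows were listed for 27 of the 39 symbols, with 33 windows in all. The NF-kappaB motif was found in 8 of the 33 windows and in 8.46% of all 32851 windows of this length. The match shown for Cxcl1, Cxcl2 and Cxcl3 overlaps another on the opposite strand that is shifted by a single base, and the window of Cxcl10 holds a further overlapping pair closer to the start. The NBRE, AAAGGTCA, was found in 1 of the 33 windows, that of Ccl6, and in 1.51% of all windows. Of the 11 ligands with at least 10 counts in a library, 8 had windows listed (all but Ccl2, Ccl7 and Cxcl16), 11 windows in all, and none of these held AAAGGTCA. These are matches of letters and not measured binding sites.

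The libraries held between 15019038 and 17574340 counts, and 3 counts, the limit that a count of 0 allows, correspond to between 0.171 and 0.200 CPM (counts scaled to a fixed library total). Nr4a1 itself had 50660 to 68555 counts with the NR4A1 plasmid and 428 to 510 with the vector (log2 fold change 7.07 ± 0.136, standard error; edgeR adjusted p = 2.13e-06), as the labels say. Of 10 lung epithelial markers, Krt8, Krt19, Cdh1, Nkx2-1, Sftpc and Sftpb had at least 189 counts in every library. Sftpa1 was at 0 in every library, Epcam had between 2 and 22 counts and Lamp3 between 2 and 6. Krt18 was uneven, with 8, 164 and 14 counts in N1, N2 and N3 and 21, 8 and 2 in S1, S2 and S3. Of the 7 epithelial markers tested, edgeR called 0, and 3 had an unadjusted p under 0.05 (DESeq2 0 and 3, limma-voom 0 and 2), against 6.46% of all tested genes. The 3 in edgeR were Krt19, Cdh1 and Nkx2-1, with log2 fold changes of -0.25, -0.27 and -0.32, all lower with NR4A1. Library N2 stands apart. Of 14306 genes with at least 10 counts in a library, 279 (1.95%) exceeded all other libraries by 10-fold or more in N2, against 5 in S1 (0.0350%), 1 in S2 (0.00699%) and 0 in N1, N3 and S3. Results that rest on N2 are therefore given with and without it.

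Most chemokine ligands had few or no counts in these cells. Of the 44 rows, 20 had 0 counts in all 6 libraries, 13 had at most 7 counts in any library, and 11 (Cx3cl1, Ccl25, Ccl27a, Cxcl1, Cxcl15, Cxcl16, Cxcl10, Cxcl12, Ccl2, Ccl7 and Ccl9) reached 10 counts in at least 1 library. In the whole table, 41.2% of the rows reached 10 counts in a library. At least 1 count in a library was found for 24 of the 44 rows and for 56.2% of all rows. The rows at 0 were the macrophage inflammatory proteins Ccl3 and Ccl4, the neutrophil attractant Cxcl2, the eotaxin Ccl11, the lymphoid tissue ligands Ccl19 and Cxcl13, Ccl1, Ccl8, Ccl12, Ccl26, Ccl27b and Xcl1, all rows of Ccl21a, Ccl21b and Ccl21c, and the 2 rows of Ccl27a on unplaced scaffolds. A count of 0 allows up to 3 counts, that is 0.171 to 0.200 CPM, for counting error only.
The 13 rows with few counts included Ccl5, a T cell attractant induced by interferon, with 3, 7 and 0 counts in N1, N2 and N3 and 2, 3 and 3 counts in S1, S2 and S3. Cxcl5 had 5 counts in N2 and 1 in S1. Ccl20 had 2 counts in N2 and 4 in N3, Ccl22 had 4 in N3, and Ccl17 had 4 in S3. Ccl6, Cxcl14, Ccl28, Cxcl11, Ccl24, Cxcl17, Cxcl3 and Cxcl9 had at most 3 counts in any library. Of all 44 rows, 4 (Ccl24, Cxcl14, Cxcl3 and Cxcl9) had counts in N2 alone, with 1 to 3 counts each.

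**Figure D1:**
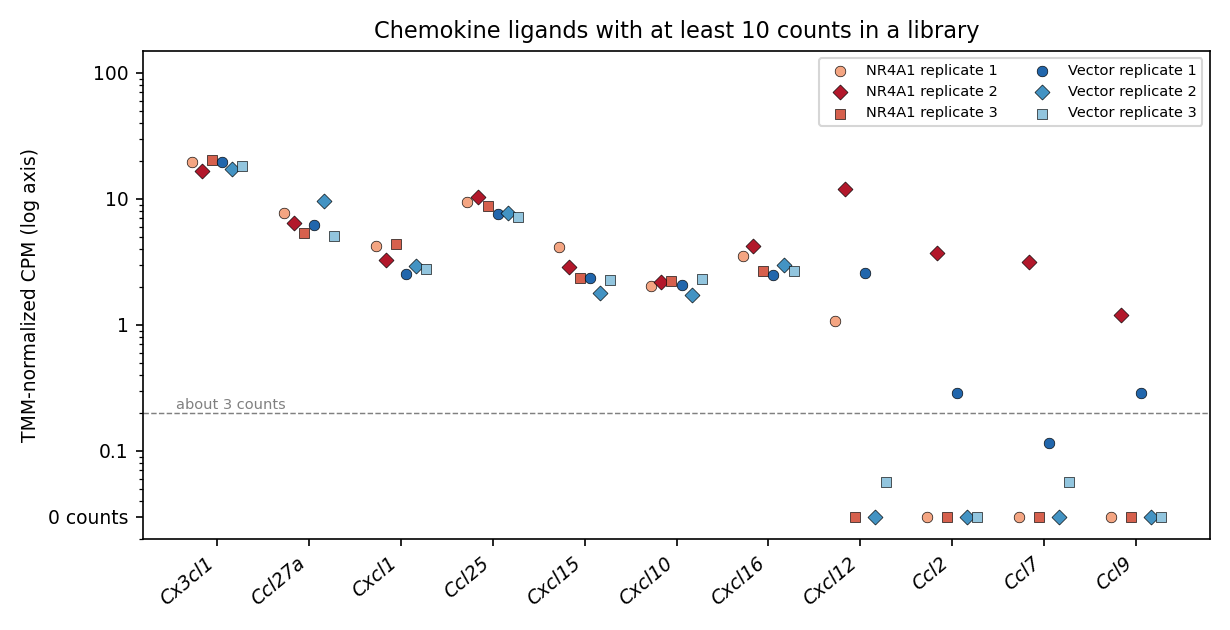
Level of the 11 chemokine ligands with at least 10 counts in a library, as TMM-normalized CPM on a log axis, with 1 point for each library and libraries without a count drawn at the bottom. The first 7 ligands sit in a narrow band in all 6 libraries, while Cxcl12, Ccl2, Ccl7 and Ccl9 are highest in NR4A1 replicate 2 and second highest in vector replicate 1. For Ccl7 this second place rests on 2 counts against 1 in vector replicate 3, both under the limit of 3 counts.

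In total, the ligands held 775, 1130 and 809 counts in N1, N2 and N3 and 807, 743 and 727 counts in S1, S2 and S3. The 7 ligands that were counted in all 6 libraries were Cx3cl1, Ccl25, Ccl27a, Cxcl1, Cxcl15, Cxcl16 and Cxcl10. Without Ccl2, Ccl7, Ccl9 and Cxcl12, which were set aside after their values were seen, the totals were 759, 795 and 809 counts in the NR4A1 libraries and 750, 743 and 725 in the vector libraries. After normalization for depth these totals were 51.3, 47.4 and 46.7 CPM in N1, N2 and N3 and 43.4, 44.3 and 41.1 CPM in S1, S2 and S3. The difference between these sums was not tested.

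Cx3cl1 (fractalkine; chromosome 8 from 94772009 to 94782423 in the deposited table) had the highest count of the ligands in every library. It was counted 293, 280 and 354 times in N1, N2 and N3 and 338, 291 and 323 times in S1, S2 and S3, and the groups overlapped. The mean was 19.0 ± 2.02 CPM in the NR4A1 group and 18.4 ± 1.10 CPM in the vector group (SD, n = 3 each).
Ccl25, a ligand of CCR9 known from thymus and gut, was counted 140, 173 and 153 times in the NR4A1 libraries and 132, 129 and 127 times in the vector libraries. Every NR4A1 library was above every vector library after normalization, with 9.54 ± 0.736 against 7.51 ± 0.276 CPM (SD, n = 3 each).
Ccl27a, a skin-associated ligand of CCR10, was counted 115, 108 and 92 times in the NR4A1 libraries and 108, 162 and 89 times in the vector libraries. Its highest value was in S2 and its lowest in S3, so the groups overlapped.
Cxcl1 (chromosome 5 from 90891241 to 90893115), the mouse keratinocyte-derived chemokine, was counted 63, 55 and 76 times in N1, N2 and N3 and 44, 49 and 49 times in S1, S2 and S3. The NR4A1 libraries lay above all vector libraries, at 3.98 ± 0.609 against 2.75 ± 0.190 CPM (SD, n = 3 each).
Cxcl15 (lungkine), a neutrophil attractant made by mouse lung epithelium, was counted 61, 48 and 41 times in the NR4A1 libraries and 41, 30 and 40 times in the vector libraries. N3, at 2.37 CPM, lay level with S1, also at 2.37 CPM, and N1 was the highest library with 4.12 CPM.
Cxcl16, a ligand of CXCR6 and a scavenger receptor, had 52, 71 and 46 counts in N1, N2 and N3 and 43, 50 and 47 in S1, S2 and S3, with overlapping groups. Cxcl10, an interferon-induced ligand, had 30, 37 and 39 counts in the NR4A1 libraries and 36, 29 and 41 in the vector libraries, also with overlap.

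No chemokine ligand was called higher or lower, a call being a 2-fold or larger change with a Benjamini-Hochberg adjusted p below 0.05. Of the 44 rows, 8 passed edgeR's filter on low counts and were tested, these 7 and Cxcl12, and 0 were called by edgeR's quasi-likelihood test, by DESeq2 or by limma-voom. Among all 12941 tested genes 22 (0.170%) were called higher and 0 lower, a share too small to read anything from 0 of 8. At an unadjusted p under 0.05, 2 of the 8 ligands passed in edgeR, Cxcl1 and Ccl25, against 6.46% of all tested genes, and 2 passed in limma-voom and 0 in DESeq2. The groups did not overlap in the same 2 ligands, with the NR4A1 libraries higher in both. Over all tested genes this held for 12.9% in either direction, 6.69% with NR4A1 higher and 6.22% with NR4A1 lower. The median log2 fold change was 0.35 over the 8 ligands and 0.01 over all tested genes.
The log2 fold change of Cxcl1 was 0.53 (standard error 0.207, unadjusted p = 0.0366, edgeR adjusted p = 0.731), with a 95% interval from 0.04 to 1.02. That of Ccl25 was 0.34 (standard error 0.136, unadjusted p = 0.0383, edgeR adjusted p = 0.735), with an interval from 0.02 to 0.66. Both intervals stand before any adjustment for the number of genes. Cxcl15 had a log2 fold change of 0.54 (interval -0.11 to 1.18, adjusted p = 0.828) and Cxcl16 one of 0.35 (interval -0.21 to 0.91, adjusted p = 0.872) in the same test.
For Cx3cl1 the log2 fold change was 0.04 and the interval, from -0.22 to 0.31, left room for a fold between 0.860 and 1.24. Cxcl10 was at 0.08 (interval -0.44 to 0.60) and Ccl27a at -0.10 (interval -0.76 to 0.55). For Cx3cl1, Ccl25, Cxcl10, Ccl27a and Cxcl16, the interval thus did not reach a 2-fold change in either direction, whereas those of Cxcl1 and Cxcl15 reached just above a 2-fold rise.

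**Figure D2:**
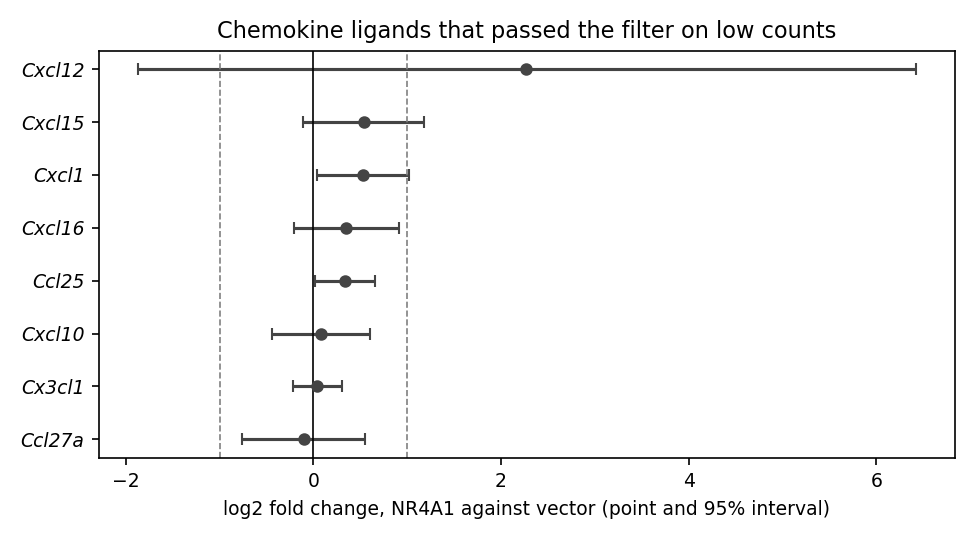
Log2 fold change of the 8 chemokine ligands that passed the filter on low counts, as points with 95% intervals, NR4A1 group (n = 3) against vector group (n = 3), with dashed lines at a 2-fold change. The interval of Cxcl12, from -1.87 to 6.42, is far wider than the others, and those of Cxcl1 and Ccl25 lie just above 0.

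Cxcl12, Ccl2, Ccl7 and Ccl9 had another distribution over the libraries. Cxcl12 (chromosome 6 from 117168535 to 117181367), which retains progenitor cells through CXCR4 and is made mainly by stromal cells, was counted 16, 199 and 0 times in N1, N2 and N3 and 45, 0 and 1 times in S1, S2 and S3. N2 was the highest library and S1 the second, and the groups overlapped.
Its log2 fold change was 2.27 with a standard error of 1.76 (adjusted p = 0.893, edgeR's quasi-likelihood test). It became -0.78 without N2 (adjusted p = 0.885), 6.89 without S1 (adjusted p = 0.942) and 3.83 without both (adjusted p = 0.604), each from the same test, so that single libraries set its size and direction.
Ccl2 (chromosome 11 from 82035571 to 82037453), the monocyte attractant also called MCP-1, was counted 0, 63 and 0 times in N1, N2 and N3 and 5, 0 and 0 times in S1, S2 and S3. Ccl7, which lies beside Ccl2 on chromosome 11 from 82045712 to 82047525 and uses the same receptor, was counted 0, 53 and 0 times and 2, 0 and 1 times. Ccl9, a macrophage-derived ligand of CCR1 on the same chromosome, was counted 0, 20 and 0 times and 5, 0 and 0 times. In all of these the reads were mostly in N2, and without N2 no library had more than 5 counts.
These 3 genes did not pass the filter on low counts. Fitted without the filter, Ccl2, Ccl7 and Ccl9 were not called (edgeR unadjusted p = 0.119, 0.0758 and 0.327, adjusted p = 0.808 for each). Ccl24, with 1 count in all, had the same adjusted p, so that value does not set these genes apart.

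**Figure D3:**
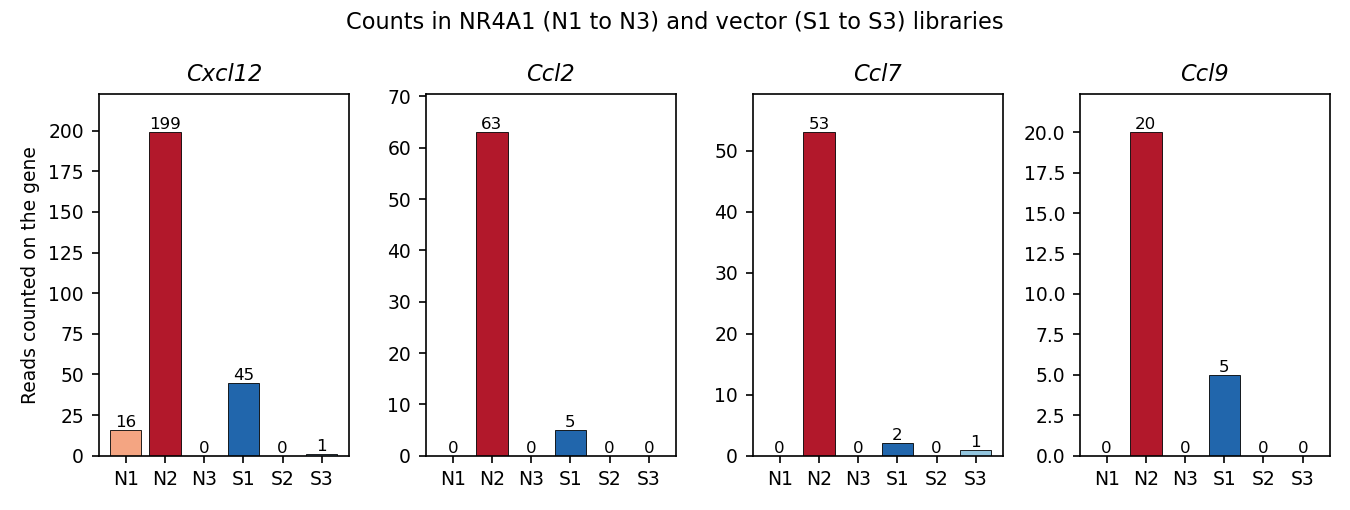
Reads counted on Cxcl12, Ccl2, Ccl7 and Ccl9 in the 3 NR4A1 libraries (N1 to N3) and the 3 vector libraries (S1 to S3), with a separate axis from 0 for each gene and the count above each bar. N2 has the highest bar for every gene, with 199, 63, 53 and 20 counts, and S1 the second highest, with 45, 5, 2 and 5 counts. The 2 counts of Ccl7 in S1 and the 1 in S3 are both under the limit of 3 counts.

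After normalization, N2 exceeded S1 by 4.55-fold for Cxcl12 (95% interval 3.28 to 6.44), 13.0-fold for Ccl2 (5.27 to 41.3), 27.3-fold for Ccl7 (7.19 to 231) and 4.12-fold for Ccl9 (1.50 to 14.0). These are exact binomial intervals for counting error between 2 libraries and not between conditions. Of the 11 ligands with 10 counts in a library, 2 (Ccl2 and Ccl7) exceeded all other libraries by 10-fold or more in N2, against 1.95% of all genes with 10 counts, and 4 did so by 3-fold or more, against 5.09%. Ccl2, Ccl7 and Ccl9 reached 10 counts only in N2, so they entered the 11 through the library where they are high, and nothing is concluded from these shares. Together, Ccl2, Ccl7, Ccl9 and Cxcl12, chosen after their values were seen, held 29.6% of all chemokine ligand counts in N2 and 7.06% in S1, and at most 2.06% in the other 4 libraries.
Among the 7 ligands counted everywhere, N2 was the highest library for Ccl25 and Cxcl16, the lowest for Cx3cl1, and in the middle for Cxcl15, Cxcl10, Ccl27a and Cxcl1.

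Markers of other cell types moved with N2. Of 10 fibroblast markers 7 were highest in N2, of 10 endothelial markers 9, and of 10 smooth muscle and pericyte markers all 10, against 26.2% of all genes with 10 counts. The lists were written with earlier results of these data known. Several markers, among them Cdh5, Tie1, Emcn, Kdr, Cspg4, Lmod1 and Actg2, reached 10 counts only in N2. Such markers are counted through the library where they are high, so nothing is concluded from this share. The summed endothelial markers were at 162 CPM in N2 and between 11.1 and 12.7 CPM in the other 5 libraries, and the summed smooth muscle markers at 374 CPM against 2.38 to 8.16 CPM. The summed fibroblast markers were at 1584 CPM in N2 and between 946 and 1070 CPM elsewhere, a sum that is mostly Dcn, which MLE-12 libraries of both groups held in similar amounts. The 10 leukocyte markers, with 11 rows, summed to 5.84 CPM in N2 and to 2.20 to 3.65 CPM elsewhere, and 4 of the rows were highest in N2. Among these, Csf1r was counted 4, 21 and 4 times in N1, N2 and N3 and 1, 2 and 3 times in S1, S2 and S3. Lyz2 was counted 0, 20 and 0 times and 12, 1 and 1 times. Ptprc, which marks all leukocytes, had 1 count in S2 and 0 in the other libraries. The 6 markers of lymphatic vessels and lymph node stroma summed to 57.2 CPM in N2 and to 37.5 to 43.8 CPM elsewhere, and all 6 were highest in N2. This sum is mostly Pdpn, which was at 44.7 CPM in N2 and 42.8 CPM in S2. Prox1, Cr2 and Madcam1 had only 3, 3 and 4 counts in N2, at or near the limit of 3 counts. Lyve1 and Flt4 had 122 and 77 counts in N2 and at most 4 and 19 in any other library.
The order of N2 first and S1 second was found in 6 of the 10 fibroblast markers (Col1a1, Col1a2, Col3a1, Pdgfra, Postn and Thy1), 6 of the 10 smooth muscle markers and 1 of the 10 endothelial markers, against 5.88% of all genes with 10 counts. The lung epithelial, leukocyte and lymphatic lists held 1 such marker each (Krt18, Lyz2 and Flt4). In the smooth muscle list, S1 stood well above the next library only for Pdgfrb (81 against 15 counts) and Tagln (23 against 8). Acta2 had 15 counts in both S1 and S3, and Cnn1 had 7 in S1 and 6 in N3. Rgs5 had 7 in S1 and 5 in N1 and S3, and Lmod1 had 4 in S1. For Flt4, S1 had 19 counts and S3 had 18. As above, nothing is concluded from these shares. Col1a1 was counted 99, 4189 and 84 times in N1, N2 and N3 and 303, 103 and 124 times in S1, S2 and S3. Pdgfra was counted 18, 611 and 18 times and 92, 12 and 12 times. The endothelial genes Cdh5 and Tie1 had 419 and 192 counts in N2 and 0 in every other library, S1 included. Pecam1, Emcn, Eng and Kdr of the same list exceeded all other libraries 10-fold or more in N2, with 633, 304, 594 and 38 counts there. So did the smooth muscle and pericyte genes Acta2, Tagln, Cspg4, Lmod1 and Actg2, with 3841, 1375, 123, 90 and 39 counts, and the lymphatic marker Lyve1, with 122. Between the groups, edgeR and limma-voom called 0 of the markers of these cell types, and DESeq2 called 1, the endothelial gene Vwf, with 25, 254 and 40 counts in N1, N2 and N3 and 11, 23 and 17 in S1, S2 and S3 (edgeR adjusted p = 0.644). DESeq2 gave no adjusted p for either of the 2 smooth muscle markers tested and one for 3 of the 7 fibroblast markers and 4 of the 5 endothelial markers. The part of these cell types in the counts of Cxcl12, Ccl2, Ccl7 and Ccl9 was not tested. In bulk RNA, more cells of a type and more RNA per cell cannot be told apart.

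**Figure D4:**
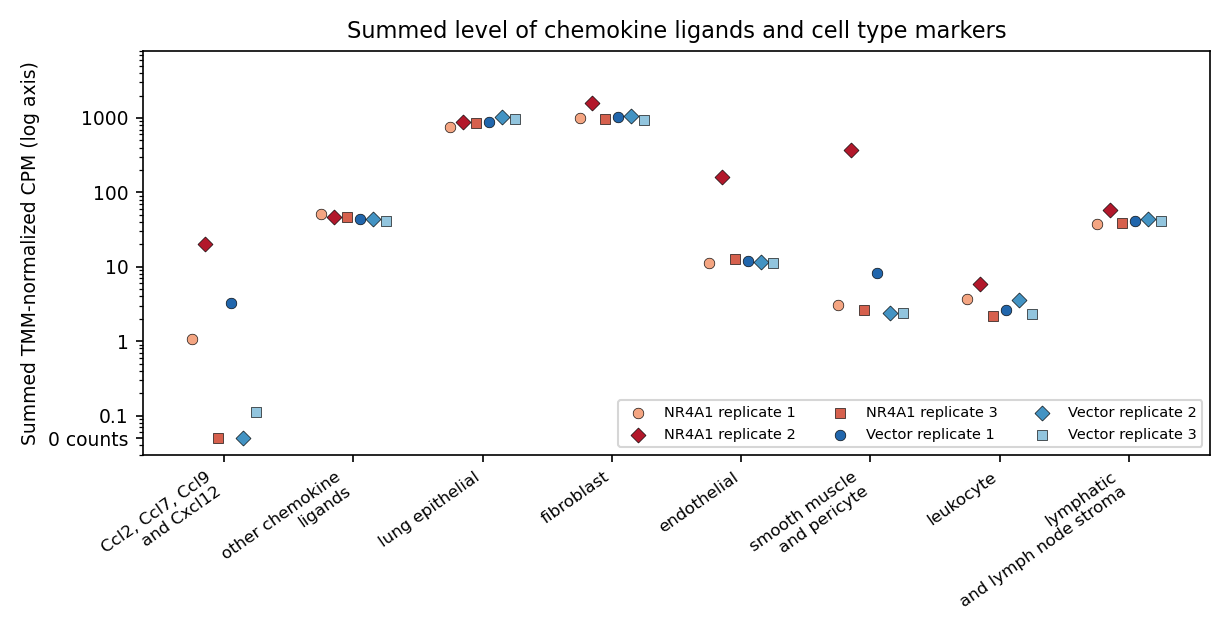
Summed TMM-normalized CPM on a log axis, with 1 point for each library, for Ccl2, Ccl7, Ccl9 and Cxcl12 together, for the other chemokine ligands and for 6 lists of cell type markers, with a sum of 0 drawn at the bottom. NR4A1 replicate 2 is at 20.0 CPM for the first sum against at most 3.30 CPM elsewhere. It is also the highest for the endothelial, smooth muscle, fibroblast, leukocyte and lymphatic lists, but not for the other ligands or the epithelial list.

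Levels of different ligands can be compared only per length, and the deposited FPKM (fragments per kilobase of exon, scaled to the library total) rests on a length that counts overlapping exons more than once. Of 8864 genes with the coordinates of GENCODE M21 and 50 counts in a library, the length implied by count and FPKM was within 1% of the summed length of all distinct annotated exons in 89.2%, and within 1% of the exon union in 10.4%. For Ccl27a, with 19 annotated transcripts, the implied length was 7077 bases against an exon union of 2377 bases, and for Cxcl10 it was 4765 against 2252 bases.
On the FPKM scale, the order in the vector group was Cx3cl1 (4.12 ± 0.232), Ccl25 (1.95 ± 0.0752), Cxcl15 (1.01 ± 0.143), Ccl27a (0.994 ± 0.346), Cxcl1 (0.979 ± 0.0713), Cxcl16 (0.595 ± 0.0575) and Cxcl10 (0.432 ± 0.0615), each with SD and n = 3. Cxcl15 overlapped with Ccl27a and Ccl27a with Cxcl1 across the vector libraries, and the other neighbours did not overlap.
Recomputed as CPM per kilobase of exon union, Cx3cl1 was at 4.68 ± 0.281, Ccl27a at 2.94 ± 1.01, Cxcl1 at 1.47 ± 0.101, Ccl25 at 1.01 ± 0.0370, Cxcl15 at 1.01 ± 0.146, Cxcl10 at 0.908 ± 0.132 and Cxcl16 at 0.898 ± 0.0831. On that scale Ccl25, Cxcl15, Cxcl10 and Cxcl16 overlapped with their neighbours. Cx3cl1 led in the vector group on both scales, while the place of each of the other 6 changed with the length. In N2, Ccl7 at 3.91 FPKM was above Cx3cl1 at 3.68 FPKM, but per kilobase of exon union it was below, at 3.94 against 4.24 CPM. For Ccl25 the exon union in M21 (7445 bases) is longer than the length implied by the deposited FPKM (3884 bases), and Cx3cl1 has other coordinates in M21, so the annotation behind their counts differed from M21 and their level per kilobase is uncertain.

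**Figure D5:**
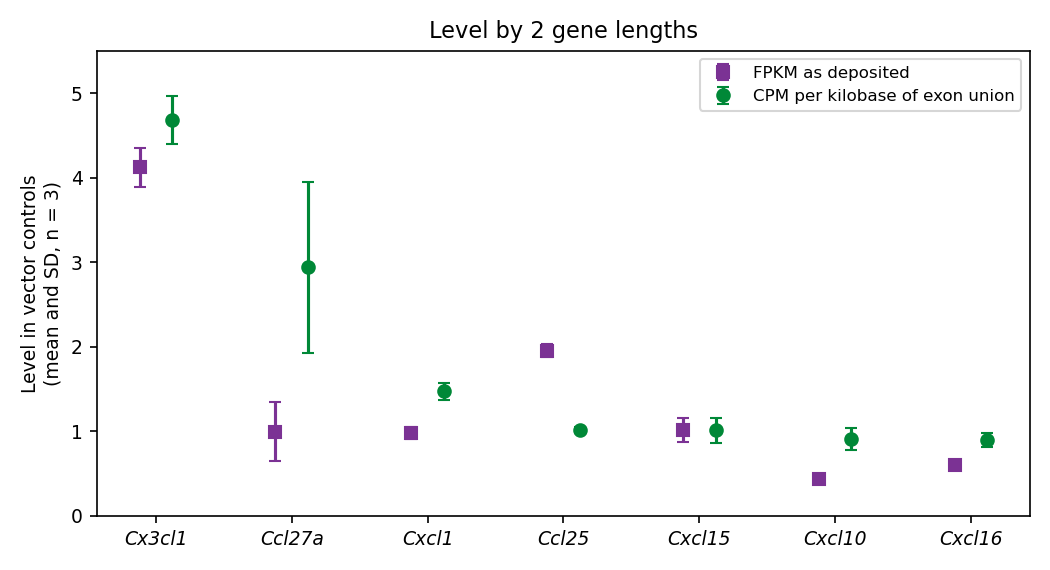
Level of the 7 ligands counted in all libraries in the vector controls, as mean and SD of 3 libraries, on the deposited FPKM scale (squares) and as CPM per kilobase of exon union (circles). Cx3cl1 is highest on both scales, and Ccl27a moves from 0.994 to 2.94 while Ccl25 moves from 1.95 to 1.01.

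Some of these counts may hold reads of other genes. Of the 50-base stretches of the Ccl27a transcripts, 45.0% also occur in Ccl27b or in copies such as Gm13306, all of which were listed at 0 counts, so the level of Ccl27a is uncertain. In GENCODE M21, exons of Ccl25 overlap those of Elavl1 on the opposite strand by 204 bases, and Elavl1 had between 1945 and 2263 counts per library. The annotation behind the Ccl25 counts differed from M21, so whether these bases were counted is not known. Exons of Ccl27a overlap Il11ra1, with 392 to 593 counts per library, by 8 bases. Exons of Cxcl16 overlap Zmynd15, with at most 10 counts per library, by 552 bases, and those of Cxcl10 overlap Art3, with at most 8 counts, by 133 bases. The library kit marks strand, but whether the counting used strand is not given in the sources used here.

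The receptors that read these ligands were largely absent. Of 23 chemokine receptors, 13 had 0 counts in every library, among them Ccr2 for Ccl2 and Ccl7, Ccr9 for Ccl25, Ccr10 for Ccl27a, Cxcr2 for Cxcl1 and Cxcr6 for Cxcl16. Cx3cr1, the receptor of Cx3cl1, had 1 count in S1, and Cxcr3, that of Cxcl10, had 1 count each in N3 and S1. The receptors of Cxcl12 were the exception, together with Ccrl2. The scavenging receptor Ackr3 was counted 113, 188 and 166 times in N1, N2 and N3 and 160, 174 and 161 times in S1, S2 and S3, and Cxcr4 18, 33 and 32 times and 38, 40 and 30 times. Ccrl2, which presents chemerin, was counted between 45 and 57 times in every library. Ackr4, a scavenger of Ccl25, Ccl19 and Ccl21, had 25 counts in N2 and 0 in the other libraries. Of the 3 receptors tested, 0 were called and 0 had an unadjusted p under 0.05 in edgeR, DESeq2 or limma-voom.
Most genes of the pathways that induce chemokine ligands were counted, but most of the inducing cytokines were not. Of 37 genes of this list 31 were tested and 0 were called by edgeR, DESeq2 or limma-voom, with 2, 3 and 4 at an unadjusted p under 0.05. The 2 in edgeR are a share close to the 6.46% of all tested genes. They were the receptors Tlr2 (log2 fold change -0.42, adjusted p = 0.567) and Tnfrsf1a (-0.23, adjusted p = 0.731), named after their values were seen. The NF-kappaB subunits Rela and Nfkb2 had at least 1699 counts in every library, with log2 fold changes of -0.10 and -0.11. Il1a, Il1b, Ifng and Il17a were at 0 counts in all libraries and Tnf had 2 counts, both in S1. Il6 had 12 counts in N2 and 5, 2 and 1 in S1, S2 and S3, again with N2 first and S1 second.
Of 15 genes that shed, cleave or present chemokine ligands, 11 were tested and 0 were called by any of the 3 tools, with 1 at an unadjusted p under 0.05 in each, which among 11 is near the 6.46% of all tested genes. In edgeR this was Ndst2, a heparan sulfate sulfotransferase (log2 fold change -0.22, unadjusted p = 0.0245), named after its value was seen. Adam10, a sheddase of Cx3cl1 and Cxcl16, was counted between 3836 and 8080 times, the lowest value being that of S2, and Adam17 between 1912 and 2325 times. The heparan sulfate proteoglycans Sdc1 and Sdc4 had log2 fold changes of 0.03 and 0.02. Sdc3 was at 0, 190 and 2 counts in N1, N2 and N3 and 16, 5 and 1 in S1, S2 and S3, and Mmp2, a gelatinase that truncates Cxcl12, at 9, 739 and 5 and at 80, 3 and 2 counts, both with N2 first and S1 second. The platelet ligands Pf4 (Cxcl4) and Ppbp (Cxcl7), which belong to the family but not to the naming rule, had 3 counts in N2 alone and 0 counts. Mif, a cytokine that binds CXCR4, was counted between 2407 and 3790 times (log2 fold change 0.03, edgeR adjusted p = 0.980), with overlapping groups. Cklf, a chemokine-like factor, was counted 88, 109 and 107 times in N1, N2 and N3 and 145, 158 and 134 times in S1, S2 and S3. It was lower in every NR4A1 library than in any vector library (log2 fold change -0.45, unadjusted p = 0.0221, edgeR adjusted p = 0.665). Over all tested genes, 6.22% were lower in this way and 6.46% had an unadjusted p under 0.05.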

How the data were processed

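Total RNA of MLE-12 cells (3 NR4A1 and 3 vector libraries) was sequenced with a strand-specific kit, and samples were grouped by the treatment label. HISAT2 2.0.4 and GRCm38.p4 are named in the submitters' processing notes. The counting program and its annotation are not given in the sources used here. The authors deposited raw counts per gene and library and FPKM values, which they scaled by the library total and a gene length. From the counts, edgeR 4.0.16 in R 4.3.3 gave TMM-normalized CPM, filterByExpr removed low genes, and the quasi-likelihood test compared the groups with Benjamini-Hochberg adjustment over 12941 genes. Standard errors are the log2 fold change divided by the square root of F. DESeq2 1.42.0 and limma-voom (limma 3.58.1) were alternatives, with other size factors, no filter, other thresholds (the study called genes at an unadjusted p and a 2-fold change), the replicate block and left-out libraries. The scripts were tested on simulated data. Lengths and shared stretches came from GENCODE M21, in which 40 of the 44 rows have the deposited coordinates, and promoters from RefSeq. The members and lists were chosen with earlier results of these data known. Ligands with 10 counts in a library are named with their counts, and, of the receptor, inducing, processing and family lists, up to 5 of the most abundant genes, those called and those 10-fold higher in N2. Other list genes, and all cell type markers, were named after their values were seen. Protein sequences were not used here.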

Additional observations from a re-analysis of the deposited data

How the results depend on the processing

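The number of chemokine ligands, chemokine receptors and inducing genes past the threshold stayed at 0 in both directions under every alternative fitted, each left-out library included. Over all genes, 22 were higher and 0 lower. The number higher was 71 with DESeq2, 63 with DESeq2 without the filter, 5 with the replicate block, 144 at an unadjusted p with a 2-fold change and 39 without N2 and S1 together, and between 3 and 26 with each library left out. The number lower was 2 with DESeq2 with or without the filter, 17 at an unadjusted p, 1 without a fold threshold and 4 without N2 and S1, and between 0 and 3 with each library left out. DESeq2 without the filter and leaving out N2 and S1 together were chosen after seeing the data. The cause of these shifts was not tested. With each library left out, the log2 fold change lay between -0.29 and 0.20 for Ccl27a (0.02 without N3, 0.20 without S2), -0.01 and 0.13 for Cx3cl1 (-0.01 without N3), -0.03 and 0.18 for Cxcl10 (-0.03 without S2) and -0.78 and 6.89 for Cxcl12 (-0.78 without N2), so that each changed sign. Those of Cxcl1 (0.45 to 0.65), Ccl25 (0.28 to 0.40), Cxcl15 (0.28 to 0.70) and Cxcl16 (0.18 to 0.51) did not. Their adjusted p over all alternatives was at least 0.509. With a 3-fold in place of a 10-fold step, 4 in place of 2 ligands stood above every other library in N2. Of these 4, Ccl2, Ccl7 and Ccl9 reached 10 counts only in N2. No pairing by replicate number was evident: same-numbered libraries had correlations of their deviations of -0.011, -0.046 and 0.246 over 12941 genes. The highest value, 0.291, was that of N2 with S1. With 3 libraries in a group these values cannot exclude a pairing. With the block, Cxcl1 was at 0.52 (adjusted p = 0.547) and Ccl25 at 0.34 (adjusted p = 0.533), and no call of a ligand changed. Under 3 counts a ligand cannot be told from absence at this depth.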
